A study of Mus musculus with 11 samples.

Results

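The 10 genes of the canonical olfactory transduction cascade were examined in RNA-seq libraries of the mouse main olfactory epithelium (MOE), the nasal tissue that holds the olfactory sensory neurons (OSNs). They were Gnal, Gng13, Ric8b, Adcy3, Cnga2, Cnga4, Cngb1, Ano2, Slc24a4 and Pde1c. They were selected by symbol, for their place in the cascade and not for any measured value, and all 10 were found among the 24421 entries of the raw count table. All 10 also passed the filter on low counts, with 142 to 5569 counts in a library.

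In the cilia of an OSN, an odorant receptor activates the G protein Golf, whose alpha subunit (encoded by Gnal) stimulates the adenylyl cyclase encoded by Adcy3. The cAMP produced opens a cyclic nucleotide-gated (CNG) channel of Cnga2, Cnga4 and Cngb1 subunits, and the calcium that enters opens the chloride channel encoded by Ano2, which amplifies the current. Calcium extrusion by the exchanger of Slc24a4 and breakdown of cAMP by the phosphodiesterase of Pde1c belong to the recovery from the response. OSNs with odorant receptors and OSNs with trace amine-associated receptors (TAARs) are both known to use this cascade.

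The mice carried the Taar2 to Taar9 cluster on both chromosomes (wild type, n = 3), on 1 (heterozygous, n = 4) or on neither (homozygous, n = 4). The deletion is germline and also removes TAAR enhancer 2, which lies within the cluster, whereas TAAR enhancer 1 outside it remains. Per the labels all were C57BL/6 pups of P1-P2, while the reporting part of the study gives an older age and a mixed background, and sex and litter are not labelled. The whole tissue was sequenced, with polyA selection and a directional kit, so that fewer OSNs and less RNA per OSN cannot be told apart in any value below.

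Total counts were 9239866 to 14632525 per library. The 14 genes of the deleted cluster summed to 87 to 119 counts in wild type, 31 to 96 in heterozygous and 1 to 3 in homozygous libraries, as labelled. The first principal component parted the libraries into 2 sets that cut across genotype. Set 1 held replicates 1 and 2 of wild type, 3 and 4 of heterozygous and 1 and 2 of homozygous, and set 2 held the other 5, with wild type replicate 3 as its only wild type library. Homozygous replicate 2 stood apart, as 25.8% of its counts came from the ribosomal RNA entry Rn45s. Xist, a transcript of the inactive X chromosome, was above 100 CPM in 3 of 3 wild type, 1 of 4 heterozygous and 1 of 4 homozygous libraries, so that genotype and Xist level were partly confounded. The sets are defined from the data and are not groups of the study.

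Each gene was compared between the genotypes with edgeR's quasi-likelihood test, fitted over all 16574 genes that passed the filter. In homozygous against wild type libraries 0 of the 10 genes were called at an adjusted p under 0.05, against a background of 0% of all genes, and 0 of 10 at an unadjusted p under 0.05, against 3.02%. Heterozygous against wild type libraries gave 0 of 10 at the adjusted threshold (background 0%) and 0 of 10 at the unadjusted one (background 2.24%). For homozygous against heterozygous libraries these counts were 0 of 10 (background 0%) and 0 of 10 (background 0.561%). DESeq2 called 8, 3 and 2 genes of 21582 in the 3 comparisons, and none was a cascade gene. The libraries of 2 genotypes overlapped for every cascade gene, whereas they did not overlap for 4.99%, 2.51% and 0.597% of all genes in the same order.

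The estimates were nonetheless mostly on the lower side. All 10 log2 fold changes were negative in homozygous against wild type libraries, with a median of -0.23 where the median over all genes tested was 0.02. In heterozygous against wild type libraries 9 of 10 were negative, with a median of -0.18 (0.00 over all genes), and in homozygous against heterozygous libraries 8 of 10, with a median of -0.09 (0.01 over all genes). The first 2 comparisons share the 3 wild type libraries. The summed level of the 10 genes was 1250.2 ± 252 CPM (SD, n = 3) in wild type, 1122 ± 146 CPM (SD, n = 4) in heterozygous and 1050.4 ± 91.1 CPM (SD, n = 4) in homozygous libraries. CPM here are counts scaled to library size with TMM factors. The wild type libraries alone spanned 997 to 1501 CPM, a range that held all 4 homozygous sums but the lowest, 917 CPM.

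**Figure D1:**
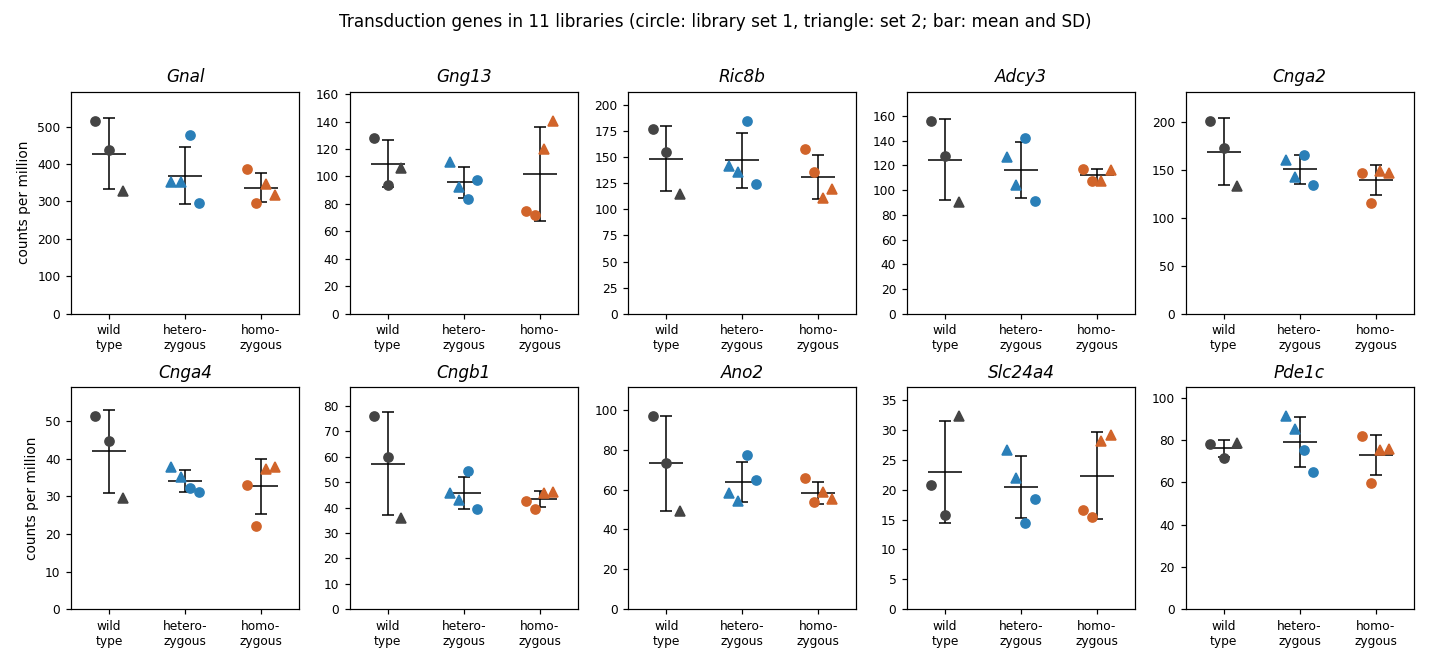
Level of each cascade gene in CPM (vertical axis, from 0) in the 3 genotypes (horizontal axis). Each point is a library (circles, set 1; triangles, set 2) and the bars are mean and SD. The genotypes overlap for all 10 genes, and wild type replicate 3 is the lowest wild type library for Gnal, Ric8b, Adcy3, Cnga2, Cnga4, Cngb1 and Ano2.

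Of the G protein genes, Gnal encodes the alpha subunit of Golf. It was at 516, 438 and 327 CPM in wild type replicates 1 to 3, at 351, 351, 478 and 297 CPM in heterozygous replicates 1 to 4, and at 387, 297, 346 and 316 CPM in homozygous replicates 1 to 4. The first 2 wild type libraries were high, and the third lay among the homozygous ones. The log2 fold change was -0.34 (SE 0.20, 95% interval -0.78 to 0.09) in homozygous and -0.21 (SE 0.20) in heterozygous against wild type libraries, and neither passed edgeR's test (unadjusted p = 0.109 and 0.311). Its exons share 7.63% of their bases with exons of Mppe1 on the opposite strand. Mppe1 was at 7.32 to 17.4 CPM, far under Gnal.

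Gng13 encodes a G protein gamma subunit of OSNs (chr17:25717171-25719406, plus strand, GRCm38, GENCODE M21). Wild type replicates 1 to 3 held 128, 94.0 and 106 CPM, heterozygous replicates 1 to 4 held 110.4, 92.3, 83.4 and 97.6 CPM, and homozygous replicates 1 to 4 held 74.7, 71.8, 119.9 and 141 CPM. The homozygous libraries thus enclosed all others on both sides, the low pair in set 1 and the high pair in set 2. Accordingly the log2 fold change against wild type was -0.10 with a SE of 0.23 (unadjusted p = 0.661), and the heterozygous one was -0.19 (SE 0.23, unadjusted p = 0.427). Of its exon bases, 51.6% also belong to exons of Chtf18 on the opposite strand. Chtf18, which encodes a replication factor subunit, was at 16.9 to 29.7 CPM in set 1 and at 40.5 to 61.8 CPM in set 2, so it was higher in set 2, as the mean of Gng13 was. The strand setting of the authors' counting is not given in the sources used here, and the part of Chtf18 reads in the Gng13 counts was not tested.

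Ric8b encodes a chaperone and exchange factor for Golf alpha (chr10:84917616-85018337, plus strand). It was at 177, 155 and 115 CPM in wild type, at 142, 136, 185 and 124 CPM in heterozygous and at 158, 135, 111 and 119 CPM in homozygous replicates. The heterozygous and wild type means were close, 147 ± 26.5 CPM (SD, n = 4) and 149 ± 31.4 CPM (SD, n = 3), and the homozygous mean was 131 ± 20.7 CPM (SD, n = 4). The log2 fold changes against wild type were -0.18 (SE 0.19, unadjusted p = 0.358) in homozygous and -0.02 (SE 0.19, unadjusted p = 0.929) in heterozygous libraries.

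Adcy3 encodes the adenylyl cyclase of the olfactory cilia (chr12:4133103-4213525, plus strand). Its levels were 156, 128 and 90.2 CPM in wild type, 127, 104, 143 and 91.5 CPM in heterozygous and 117, 107, 107 and 116 CPM in homozygous replicates. The 4 homozygous libraries were close together (112 ± 5.31 CPM, SD, n = 4) and lay inside the wild type range (125 ± 33.1 CPM, SD, n = 3). In homozygous against wild type libraries the log2 fold change was -0.16 (SE 0.19, unadjusted p = 0.434). The heterozygous one was -0.10 (SE 0.19, unadjusted p = 0.611). Cenpo exons on the opposite strand cover 22.1% of the Adcy3 exon bases, and Cenpo was at 8.72 to 14.5 CPM.

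The olfactory CNG channel is built from Cnga2, the subunit that can form a channel by itself, and the modulatory subunits Cnga4 and Cngb1. The genes lie on chromosomes X (chrX:71991849-72010218, plus strand), 7 (chr7:105404568-105408742, plus strand) and 8 (chr8:95239045-95306585, minus strand). Cnga2 was at 201, 173 and 132 CPM in wild type, at 161, 142, 165 and 134 CPM in heterozygous and at 147, 115, 149 and 146 CPM in homozygous replicates. Homozygous replicates 1, 3 and 4 were nearly alike, and homozygous replicate 2, the library rich in Rn45s, was the lowest of all 11. Cnga4 was at 51.4, 44.8 and 29.7 CPM in wild type, at 37.9, 35.2, 32.2 and 31.3 CPM in heterozygous and at 33.0, 22.2, 37.4 and 38.0 CPM in homozygous replicates. Cngb1 was at 76.1, 59.8 and 36.0 CPM in wild type, at 45.9, 43.1, 54.3 and 39.5 CPM in heterozygous and at 42.4, 39.4, 45.6 and 46.1 CPM in homozygous replicates. In all 3 genes wild type replicate 1 was the highest of 11 libraries, and wild type replicate 3 lay under most knockout libraries.

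The channel genes had some of the most negative estimates of the cascade. In homozygous against wild type libraries the log2 fold changes were -0.40 for Cngb1 (SE 0.21, 95% interval -0.87 to 0.06, unadjusted p = 0.0845 in edgeR), -0.36 for Cnga4 (SE 0.22, unadjusted p = 0.121) and -0.28 for Cnga2 (SE 0.16, unadjusted p = 0.110). In heterozygous against wild type libraries they were -0.33, -0.30 and -0.17 (unadjusted p = 0.152, 0.195 and 0.318). None passed the test, and every adjusted p in edgeR was at least 0.996. These results turned on wild type replicate 3. Without it 5 of the 10 cascade genes (Gnal, Cnga2, Cnga4, Cngb1 and Ano2) had an unadjusted p under 0.05 in homozygous against wild type libraries (background 4.25% of all genes) and 3 (Cnga4, Cngb1 and Ano2) in heterozygous ones (background 3.66%), still with 0 at an adjusted p under 0.05. Without wild type replicate 1 both unadjusted counts were 0 (background 2.09% and 1.36%) and the median log2 fold change was -0.09 in homozygous against wild type libraries.

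The promoters of the 3 channel genes are shown because OSN genes are known targets of EBF (Olf-1) factors. Any link between these sites and the levels across libraries was not tested. The windows are from RefSeq (GRCm38.p6), each with 250 bases before and 50 bases after the annotated start, 5′ to 3′ along the gene, with matches to the EBF core CCCNNGGG in capitals on either strand. They lie at chrX:71991599-71991898 (plus strand), chr7:105404318-105404617 (plus strand) and chr8:95306536-95306835 (minus strand).
Cnga2: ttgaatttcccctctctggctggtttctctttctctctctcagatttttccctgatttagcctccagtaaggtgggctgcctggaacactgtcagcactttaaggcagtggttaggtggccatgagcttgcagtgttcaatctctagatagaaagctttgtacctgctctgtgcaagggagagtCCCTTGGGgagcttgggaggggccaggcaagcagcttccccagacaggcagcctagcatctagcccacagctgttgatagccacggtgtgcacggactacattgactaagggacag
Cnga4: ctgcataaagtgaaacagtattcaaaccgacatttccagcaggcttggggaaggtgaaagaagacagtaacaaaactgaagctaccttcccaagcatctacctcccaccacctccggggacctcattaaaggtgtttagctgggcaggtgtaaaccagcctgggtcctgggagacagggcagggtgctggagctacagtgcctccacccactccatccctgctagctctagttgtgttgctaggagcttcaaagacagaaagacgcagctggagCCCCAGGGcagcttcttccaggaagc
Cngb1: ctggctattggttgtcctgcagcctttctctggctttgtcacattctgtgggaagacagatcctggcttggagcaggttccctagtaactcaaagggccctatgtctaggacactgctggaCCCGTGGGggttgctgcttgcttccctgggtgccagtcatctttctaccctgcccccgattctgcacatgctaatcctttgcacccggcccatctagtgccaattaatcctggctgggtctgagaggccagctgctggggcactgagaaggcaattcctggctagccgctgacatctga
The core starts 66 bases before the start of Cnga2, 129 bases before that of Cngb1 and 24 bases after that of Cnga4. Stretches with the match of the other 3 genes that held one are shown for comparison, at chr6:125711095-125711154 for Ano2, chr17:25717051-25717110 for Gng13 and chr12:102128592-102128651 for Slc24a4, all on the plus strand. The Ano2 match lies in the window of an annotated start within the gene (chr6:125710938-125711237), and its windows at the gene start held none. Gng13 had another window, which held none.
Ano2: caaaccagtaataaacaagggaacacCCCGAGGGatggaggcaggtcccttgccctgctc
Gng13: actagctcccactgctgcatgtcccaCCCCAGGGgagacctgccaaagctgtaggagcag
Slc24a4: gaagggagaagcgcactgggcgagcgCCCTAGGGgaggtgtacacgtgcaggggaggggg
In Gng13 a further match overlaps the one in capitals by all but 1 base. RefSeq windows were matched for 9 of the 10 genes (15 windows), and Gnal had none. The core was held by 6 of the 15 windows, against 13.7% of all 32851 promoter windows of the table. The longer EBF consensus, which is the core with T before and A after it, was in 0 of 15 (0.904% of all windows). The homeodomain sites TAATTA and TAATTG were in 0 and 2 of 15 (5.29% and 8.0% of all), the latter in Cngb1 and Pde1c, and TATAAA was in 0 of 15 (13.6% of all). These are matches of letters and not measurements of binding.

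Ano2 encodes the calcium-activated chloride channel of the cilia (chr6:125690419-126040126, plus strand). Its levels were 97.01, 73.2 and 49.3 CPM in wild type, 58.5, 54.3, 77.5 and 64.8 CPM in heterozygous and 65.9, 53.5, 59.0 and 55.2 CPM in homozygous replicates. Wild type held both the highest and the lowest library. The log2 fold changes against wild type were -0.32 (SE 0.21, unadjusted p = 0.140) in homozygous and -0.20 (SE 0.21, unadjusted p = 0.352) in heterozygous libraries, and neither passed edgeR's test.

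Of the recovery genes, Slc24a4 encodes the potassium-dependent sodium-calcium exchanger NCKX4 (chr12:102128733-102267091, plus strand). It was at 20.8, 15.7 and 32.4 CPM in wild type, at 26.6, 22.04, 14.5 and 18.5 CPM in heterozygous and at 16.6, 15.5, 28.2 and 29.2 CPM in homozygous replicates. Its order followed the library sets, with no wide step between them. Set 1 spanned 14.5 to 20.8 CPM (mean 16.9) and set 2 spanned 22.04 to 32.4 CPM (mean 27.7), a log2 difference of 0.71. Slc24a4 was the only cascade gene whose 2 sets did not overlap, 1 of 10 against a background of 26.9% of all genes. Between genotypes its log2 fold change was -0.04 (SE 0.31) in homozygous and -0.17 (SE 0.31) in heterozygous against wild type libraries (unadjusted p = 0.909 and 0.603 in edgeR).

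Pde1c encodes the calmodulin-dependent phosphodiesterase found in OSN cilia (chr6:56069804-56569103, minus strand). Wild type replicates were at 78.0, 71.7 and 78.9 CPM, heterozygous ones at 91.5, 85.1, 75.3 and 64.9 CPM, and homozygous ones at 81.9, 59.7, 75.2 and 75.9 CPM. It was the steadiest of the 10, with a 1.53-fold span from the lowest to the highest library where Cnga4 spanned 2.31-fold. Its log2 fold change was -0.06 (SE 0.15, 95% interval -0.38 to 0.27, unadjusted p = 0.705 in edgeR) in homozygous and 0.06 (SE 0.15, unadjusted p = 0.710) in heterozygous against wild type libraries.

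**Figure D2:**
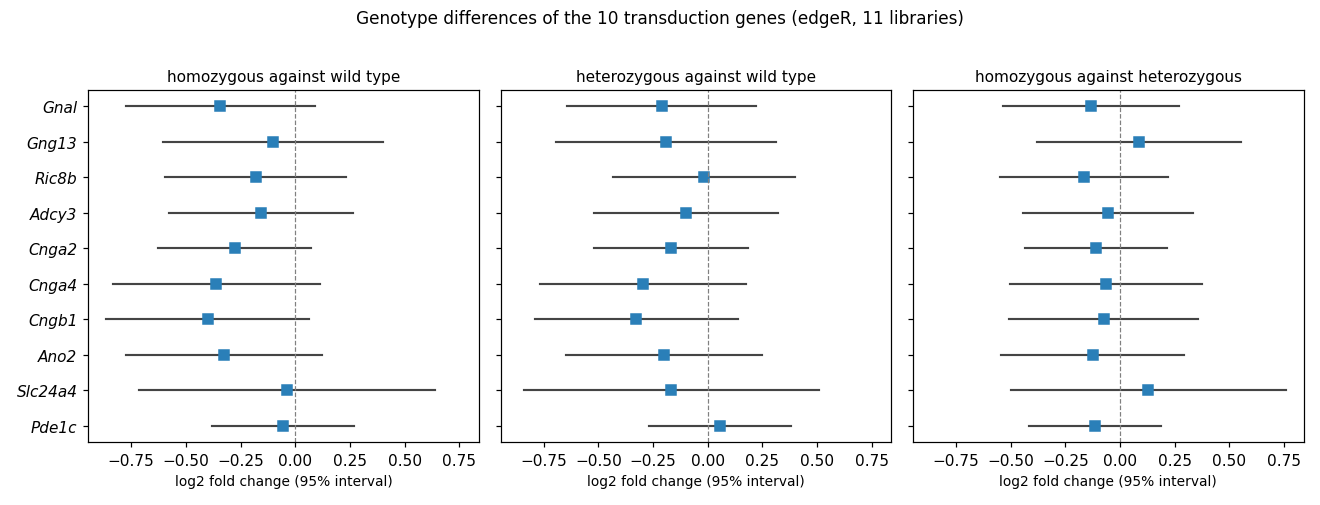
Log2 fold change of each cascade gene (horizontal axis) with its 95% interval, from edgeR over 11 libraries, 1 panel for each comparison of 2 genotypes. All 30 intervals include 0, and the 10 estimates of homozygous against wild type libraries lie between -0.40 and -0.04.

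Between homozygous and heterozygous libraries, log2 fold changes ranged from -0.16 for Ric8b (SE 0.18, unadjusted p = 0.370 in edgeR) to 0.13 for Slc24a4 (SE 0.29, unadjusted p = 0.661). Gng13 was the other positive estimate, 0.09 (SE 0.21).

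The genotype estimates were recomputed within each library set, as a description. Within set 1, homozygous libraries were lower than wild type ones in mean CPM for 10 of 10 genes, by log2 differences of -0.80 (Cnga4) to -0.08 (Pde1c) and a median of -0.50. Within set 2, which has 1 wild type library, 2 of 10 were lower, with a range of -0.18 (Slc24a4) to 0.35 (Cngb1) and a median of 0.18. The set 2 values rest on wild type replicate 3 alone, so that this library and the set cannot be told apart. Xist level was also taken as a covariate, chosen after seeing the data. The cascade median log2 fold change against wild type was then -0.13 for homozygous libraries, where all genes had -0.04. For heterozygous libraries it was -0.02, which was not below the -0.03 of all genes.

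Across the 11 libraries most cascade genes varied together, though fewer did so within set 2 alone. Cnga2 followed the mean of the other 9 genes most closely (Pearson's r = 0.97 on the log2 CPM scale, n = 11 libraries), followed by Cnga4 (0.88), Cngb1 (0.85), Gnal (0.76), Adcy3 (0.76) and Ano2 (0.67). Gng13, Pde1c and Ric8b were lower at 0.44, 0.44 and 0.43, and Slc24a4 was at -0.12. Within set 1 these r were from 0.38 (Slc24a4) to 0.99 (Cnga2). Within set 2 they were 0.82 to 0.97 for Adcy3, Cnga2, Cnga4, Cngb1 and Ano2. For the others r in set 2 was 0.24 (Gng13), 0.22 (Ric8b), 0.17 (Pde1c), 0.11 (Gnal) and -0.39 (Slc24a4). Between single genes the 3 channel subunits had r of 0.91 (Cnga2 and Cnga4), 0.92 (Cnga2 and Cngb1) and 0.80 (Cnga4 and Cngb1). Slc24a4 and Ric8b were the most opposed pair (r = -0.70), and Slc24a4 and Gng13, both higher in set 2, had r of 0.76. These points share depth, scaling and tissue composition, and the values are descriptive.

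**Figure D3:**
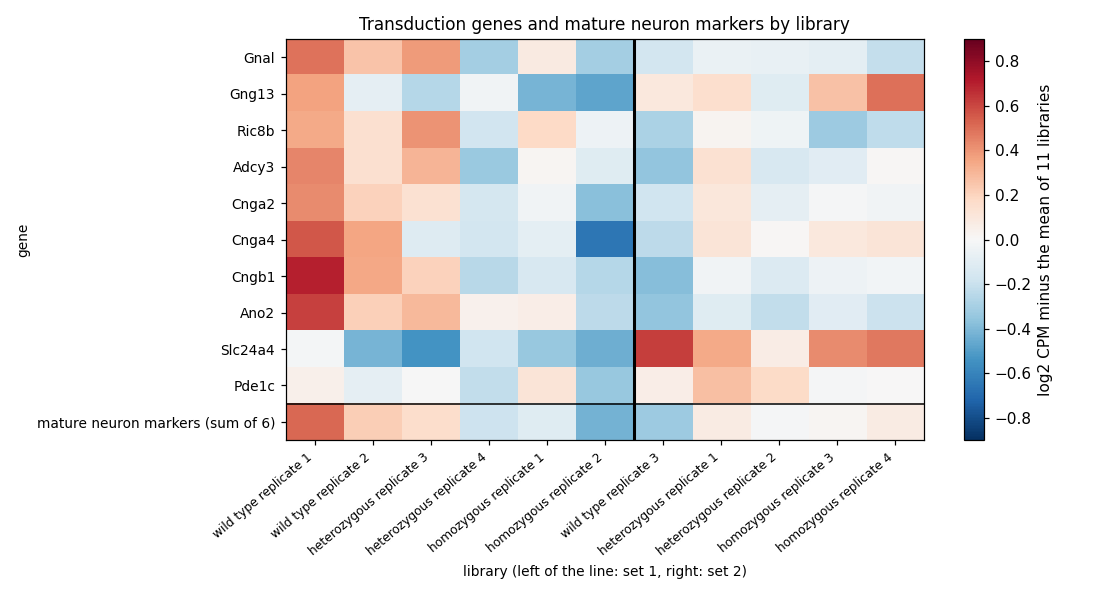
Log2 CPM of each cascade gene, and of 6 mature OSN markers summed, minus its mean over 11 libraries (colour), in libraries ordered by set (horizontal axis, line between sets). Most rows share the pattern of the marker row, with wild type replicate 1 high and homozygous replicate 2 low, while Slc24a4 is higher in set 2.

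The mean pattern of the cascade over the libraries was set beside that of every other gene. Of 11735 genes with a mean of at least 10 CPM, those with the highest correlation to the mean of the 10 were Nsg1 (r = 0.95), Stoml3 (0.94), Omp (0.94), Kcnab2 (0.93), Umodl1 (0.92), Kcnc4 (0.92), Astn2 (0.92), Faim2 (0.89), Drd2 (0.89) and Abca3 (0.87), over 11 libraries. The 6 markers of mature OSNs were spread over this order. Stoml3, Omp and Umodl1 ranked 2, 3 and 5, while Rtp1 ranked 32 (r = 0.78), Rtp2 277 (r = 0.57) and S100a5 613 (r = 0.44). The immature OSN markers Gap43 and Gng8 ranked 253 (r = 0.58) and 1752 (r = 0.24), so Gap43 came before Rtp2 and S100a5.

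The markers of mature OSNs themselves were at 957 to 1836 CPM in sum (Omp, Rtp1, Rtp2, Stoml3, Umodl1 and S100a5), and none was absent. Their sum was 1836, 1498 and 1023 CPM in wild type, 1356, 1274, 1435 and 1131 CPM in heterozygous and 1190.3, 957, 1304 and 1355 CPM in homozygous replicates. All 6 had a negative log2 fold change in homozygous against wild type libraries, with a median of -0.28 and 1 of 6 at an unadjusted p under 0.05 in edgeR against 3.02% of all genes (Umodl1, -0.49, SE 0.21, unadjusted p = 0.0369). These estimates had the same sign as those of the cascade genes. Each cascade gene was also expressed per 1000 counts of the 6 markers, as a description. The part of OSN number in the values above was not tested.

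Relative to these markers, the spread between libraries was smaller for 8 of the 10 genes, and for 6 of 10 with Omp alone as the marker. The SD of log2 values over 11 libraries went from 0.21 to 0.08 for Cnga2, from 0.31 to 0.11 for Cngb1 and from 0.32 to 0.13 for Cnga4. Gng13 (0.31 to 0.29) and Ric8b (0.25 to 0.23) differed little, and with Omp alone their SD was larger than in CPM (0.33 and 0.27). It was also larger for Slc24a4 (0.41 to 0.50) and Pde1c (0.17 to 0.25). Cnga2 was at 109, 115 and 129.5 counts per 1000 marker counts in wild type, at 118, 111, 115 and 118 in heterozygous and at 123, 120.5, 114 and 108 in homozygous replicates, a 1.201-fold span where its CPM spanned 1.74-fold. Cnga4 was at 28.0, 29.9 and 29.0 in wild type, at 27.9, 27.6, 22.4 and 27.6 in heterozygous and at 27.7, 23.2, 28.7 and 28.0 in homozygous replicates. Each of the 4 heterozygous values was lower than the lowest of wild type, with a log2 difference of -0.14 (two-sided exact permutation test, p = 0.0571, the smallest that 3 against 4 libraries can give, adjusted p = 0.971). Per Omp count alone 2 of 4 heterozygous libraries lay below wild type (exact permutation p = 0.343). The homozygous libraries overlapped wild type, with a difference of -0.11 (exact permutation p = 0.114, adjusted p = 0.971). Cngb1 was at 41.4, 39.9 and 35.2 in wild type, at 33.8, 33.8, 37.8 and 34.9 in heterozygous and at 35.6, 41.1, 34.9 and 34.03 in homozygous replicates. Both knockout genotypes overlapped wild type, and the differences were -0.14 in heterozygous (exact permutation p = 0.114, adjusted p = 0.971) and -0.09 in homozygous libraries (exact permutation p = 0.400, adjusted p = 0.971). Per Omp count alone all 4 heterozygous Cngb1 values were under those of wild type (difference -0.17, exact permutation p = 0.0571, adjusted p = 0.971). Of 30 such tests 0 had p under 0.05. Log2 differences over the 10 genes against wild type ranged from -0.11 to 0.21 in homozygous and from -0.14 to 0.17 in heterozygous libraries. These pooled values averaged opposite differences within the sets. In both knockout genotypes 8 of 10 genes were higher than wild type within set 1 and 10 of 10 lower within set 2, where wild type is replicate 3 alone. Homozygous against wild type differences were from -0.19 (Cnga4) to 0.54 (Pde1c) in set 1 and from -0.55 (Slc24a4) to -0.030 (Cngb1) in set 2. Cnga4 and Cngb1 were the 2 genes with negative differences in both sets.

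Ratios between cascade genes of 1 library do not depend on how libraries are scaled. Cnga4/Cnga2 was 0.256, 0.259 and 0.224 in wild type, 0.236, 0.248, 0.196 and 0.233 in heterozygous and 0.225, 0.193, 0.252 and 0.260 in homozygous replicates. Cngb1/Cnga2 was 0.379, 0.346 and 0.272 in wild type, 0.286, 0.304, 0.330 and 0.295 in heterozygous and 0.289, 0.342, 0.307 and 0.315 in homozygous replicates. The ranges overlapped, and the log2 differences of homozygous against wild type libraries were -0.09 (exact permutation p = 0.571) and -0.07 (p = 0.629, exact permutation test). Per kilobase of exon the mean ratios were 0.273 for Cnga4 and 0.104 for Cngb1 to Cnga2.

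Ric8b/Gnal, the chaperone over its client, was 0.342, 0.353 and 0.351 in wild type, 0.404, 0.388, 0.387 and 0.418 in heterozygous and 0.408, 0.456, 0.322 and 0.377 in homozygous replicates. All 4 heterozygous libraries were above all 3 wild type libraries, which were nearly alike. The log2 difference was 0.20 (exact permutation p = 0.0571, adjusted p = 1 over 24 tests), and it was 0.21 within set 1 and 0.17 within set 2. The homozygous libraries lay on both sides of wild type (0.15, exact permutation p = 0.286). Adcy3/Gnal was 0.303, 0.292 and 0.276 in wild type, 0.361, 0.297, 0.298 and 0.309 in heterozygous and 0.302, 0.361, 0.311 and 0.367 in homozygous replicates. Here 3 of 4 homozygous libraries were above every wild type library (log2 difference 0.20, exact permutation p = 0.114). Gng13/Gnal, the gamma over the alpha subunit, was 0.248, 0.214 and 0.326 in wild type, 0.314, 0.263, 0.175 and 0.329 in heterozygous and 0.193, 0.242, 0.347 and 0.445 in homozygous replicates, and spanned 2.55-fold (homozygous against wild type log2 difference 0.17, exact permutation p = 0.686).

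Of the downstream ratios, Ano2/Cnga2 and Slc24a4/Ano2 parted by library set, the only ones of the 8 ratios to do so. Among single genes 26.9% of all tested parted by set, and the sets were defined from these same data. Ano2/Cnga2 was 0.483, 0.423 and 0.372 in wild type, 0.364, 0.383, 0.471 and 0.484 in heterozygous and 0.449, 0.465, 0.397 and 0.377 in homozygous replicates. Its 6 set 1 values (0.423 to 0.484) lay above its 5 set 2 values (0.364 to 0.397), while the 3 genotype means were 0.426, 0.425 and 0.422. Slc24a4/Ano2 was 0.214, 0.215 and 0.656 in wild type, 0.456, 0.406, 0.187 and 0.286 in heterozygous and 0.252, 0.289, 0.478 and 0.529 in homozygous replicates, 0.187 to 0.289 in set 1 and 0.406 to 0.656 in set 2. Pde1c/Adcy3 was 0.499, 0.561 and 0.875 in wild type, 0.722, 0.815, 0.529 and 0.709 in heterozygous and 0.701, 0.556, 0.700 and 0.654 in homozygous replicates, and its sets overlapped. Homozygous against wild type log2 differences of the 3 ratios were -0.01, 0.24 and 0.05, with exact permutation p = 0.971, 0.743 and 0.800. Over 8 ratios and 3 genotype comparisons (24 tests) 0 had an exact permutation p under 0.05, and every adjusted p was 1.

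**Figure D4:**
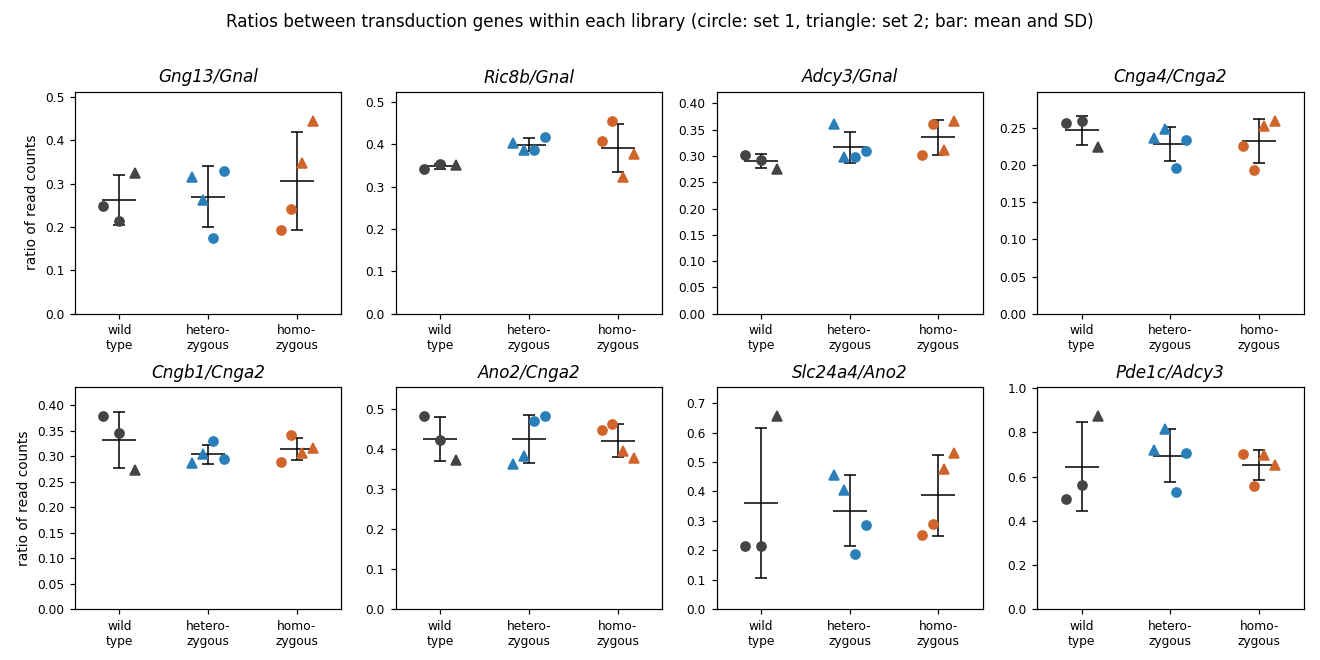
Ratio of the read counts of 2 cascade genes within a library (vertical axis, from 0) in the 3 genotypes (horizontal axis). Points are libraries (circles, set 1; triangles, set 2) and bars are mean and SD. Ano2/Cnga2 and Slc24a4/Ano2 part by set, as 26.9% of all single genes do. Ric8b/Gnal is higher in all 4 heterozygous than in the 3 wild type libraries.

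Levels were compared between genes per kilobase of exon (union of exons, GENCODE M21). Gng13 was highest at 132 ± 28.2 CPM per kb (SD, n = 11), followed by Cnga2 (48.9 ± 7.44), Gnal (33.4 ± 6.61), Ric8b (26.8 ± 4.67), Adcy3 (18.7 ± 3.25), Cnga4 (13.4 ± 2.91), Ano2 (11.95 ± 2.57), Cngb1 (5.13 ± 1.23), Slc24a4 (4.82 ± 1.398) and Pde1c (3.80 ± 0.441). From Gng13 down to Cnga4 each gene exceeded the next in 11 of 11 libraries. Cnga4 exceeded Ano2 in 8, Cngb1 exceeded Slc24a4 in 6 and Slc24a4 exceeded Pde1c in 8 of 11, so those neighbours did not separate. The order also depended on the length used. Per kilobase of the longest transcript Gnal (65.0) came before Cnga2 (49.4), Ano2 (16.4) before Cnga4 (14.4), and Pde1c (8.69) before Cngb1 (7.76) and Slc24a4 (4.89).

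Beside their paralogs, the CNG genes stood apart most. The photoreceptor and other subunits Cnga1, Cnga3 and Cngb3 were at 0.0052, 0.243 and 0.0706 CPM per kb (4, 120 and 42 counts over all libraries), while the lowest olfactory subunit was at 5.13 CPM per kb. Gng13 was above each of the 11 other gamma subunits measured, of which Gng8, the gamma subunit of immature OSNs, was next at 38.6 CPM per kb. Other steps of the cascade had paralogs at similar or higher levels in the whole tissue. Gnas, the widely expressed relative of Gnal, was at 106 CPM per kb, Adcy6 at 27.1, Ano1 at 18.7 and Ano6 at 12.7, and Slc24a2 at 6.62 CPM per kb, whereas Pde1a (0.744) and Pde1b (2.82) were under Pde1c. These levels also depended on the length used. Per kilobase of the longest transcript Gnas was at 301, Adcy6 at 30.5, Ano1 at 25.5, Ano6 at 31.7 and Slc24a2 at 7.69. Ano10, at 8.63 per kilobase of exon, was then at 19.2 and above Ano2 (16.4). The paralogs tested were 10 gamma subunits, 9 cyclases, 6 anoctamins, 3 Slc24a exchangers, 2 Pde1 phosphodiesterases, Cnga3 and Gnas. Of these, only Ano1 had an unadjusted p under 0.05 in a comparison (-0.46, SE 0.17, unadjusted p = 0.0202 in edgeR, heterozygous against wild type). The background there was 2.24% of all genes, and none of the paralogs passed the adjusted threshold.

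**Figure D5:**
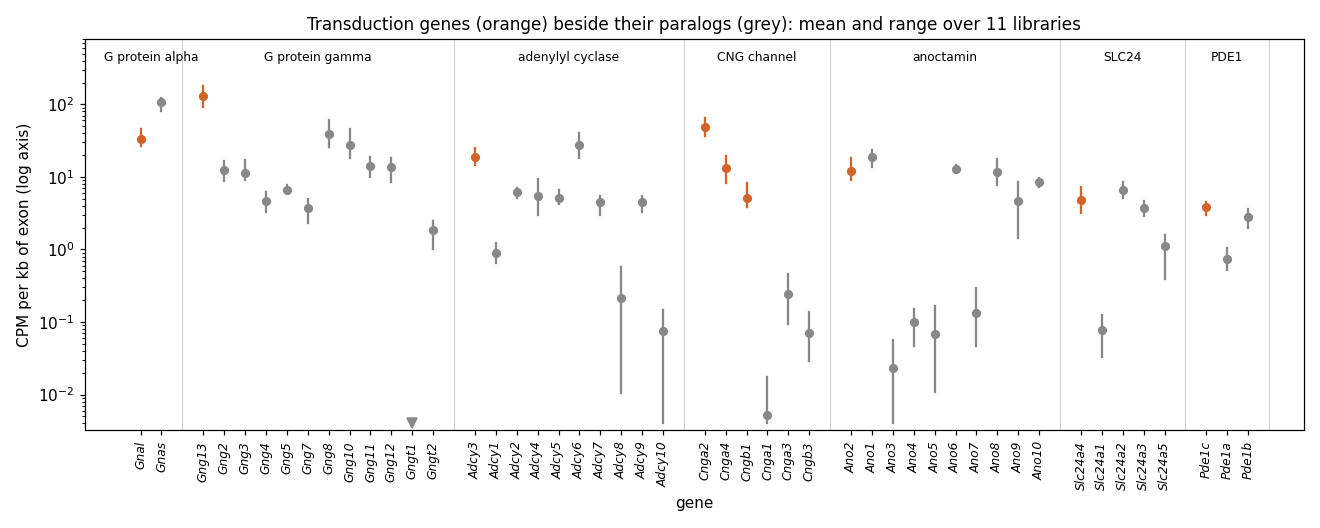
CPM per kilobase of exon (vertical log axis) of the cascade genes (orange) and their paralogs (grey) by family. Points are means and lines the range over 11 libraries. Ranges that reach 0 end at the foot of the axis, where Gngt1, listed at 0, is a triangle. Gng13 (132) and Cnga2 (48.9) lead their families, while Gnas, Adcy6 and Ano1 lie above Gnal, Adcy3 and Ano2.

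The wider pathway was followed with 34 further genes for receptor trafficking, calcium handling, calmodulin and kinases, phosphodiesterase and desensitization, of which 31 were found and tested. In homozygous against wild type libraries 15 were higher and 16 lower (median log2 fold change -0.04, 0.02 over all genes), from -0.38 for Slc12a2, the chloride loader NKCC1 (SE 0.29, unadjusted p = 0.215), to 0.58 for Camk2b, a calmodulin-dependent kinase subunit (SE 0.27, unadjusted p = 0.0565), in edgeR. Heterozygous against wild type libraries gave 14 higher and 17 lower, from -0.25 (Gng7) to 0.58 (Camk2b), and in homozygous against heterozygous libraries 13 were higher and 18 lower, from -0.47 (Atp2b2, a plasma membrane calcium pump) to 0.15 (Rgs2). In each of the 3 comparisons 0 of 31 had an unadjusted or adjusted p under 0.05 (background 3.02%, 2.24% and 0.561% unadjusted, 0% adjusted).

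Markers of other cells of the dissected tissue were measured beside the cascade genes. Skeletal muscle markers summed to 9.45 to 1735 CPM per library, and all 8 had positive log2 fold changes in both knockout genotypes against wild type (medians 3.44 and 4.22), with 4 of 8 (homozygous, background 3.02%) and 8 of 8 (heterozygous, background 2.24%) at an unadjusted p under 0.05 and 0 at an adjusted one in edgeR. The sums were uneven within genotypes. They were 9.45, 62.9 and 20.3 CPM in wild type, 23.5, 592, 17.0 and 1735 CPM in heterozygous and 123, 423, 799 and 25.1 CPM in homozygous replicates. Heterozygous replicates 1 and 3 and homozygous replicate 4 thus lay within the wild type range. Sustentacular markers (1766 to 3565 CPM) were lower in 5 of 5, with a median of -0.25, and respiratory ciliated markers (278 to 642 CPM) higher in 3 of 4 in homozygous against wild type libraries. In edgeR 0 of 5 and 0 of 4 had an unadjusted p under 0.05 (background 3.02%). Mean sums in sets 1 and 2 were 2353 and 3108 CPM for sustentacular and 548 and 319 CPM for ciliated markers. Immature OSN markers (897 to 1296 CPM) had a median of 0.05 there. The other lists (neuronal precursor, horizontal basal, microvillar tuft, guanylyl cyclase and vomeronasal neuron, ensheathing glia, cartilage and bone, erythrocyte and immune genes) had medians of -0.29 to 0.21. The part of these cells in the cascade values was not tested.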

How the data were processed

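MOE RNA was sequenced as polyA libraries. Per the submitters' notes the authors trimmed reads (Trimmomatic 0.36), aligned them to mm10 (HISAT2 2.1.0) and counted them per gene (featureCounts, Subread 1.6.2), and the raw counts they deposited were used. The annotation and strand setting are not given in the sources used here. A deposited normalised table (signal, counts divided by a factor per library, which gave whole reads for 100% of values within 0.01 read) served as a check and as a gene filter. Genes were filtered with filterByExpr, TMM scaled and tested with the two-sided quasi-likelihood test of edgeR 4.0.16 (R 4.3.3) over all 11 libraries, with Benjamini-Hochberg adjustment and a threshold of 0.05. DESeq2 1.42.0 was the alternative. Ratios were compared on the log2 scale by two-sided exact permutation tests (scipy 1.17.1), in which 3 against 4 libraries cannot go below p = 0.0571 and 4 against 4 not below 0.0286. The edgeR fit was tested on simulated data. The labels do not say that replicates came from separate litters, so p-values measure the spread between these libraries. The 10 genes were fixed by their roles and all are described, the other genes named were members of fixed lists, those most correlated with the cascade mean, or those that share exon bases with a cascade gene, and the members and lists were chosen with earlier results of these data known. Replicate numbers paired wild type with homozygous libraries (correlation of deviations 0.33, 0.42 and 0.40 for numbers 1 to 3), but not heterozygous libraries with either genotype (-0.58 to -0.19), and the pairs followed the library sets. The alternatives were RLE scaling, no filter, DESeq2, a replicate block, library set or Xist level as covariates, the 2 genotypes alone, the genes of the normalised table alone, and leaving out each library.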

Additional observations from a re-analysis of the deposited data

Results flagged for a closer look

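In homozygous libraries the lowest Cnga2 level, 115 CPM in replicate 2, was separated from the other 3 by 0.928 of the whole range of the group, above Dixon's 95% critical value for 4 samples. That library also had 25.8% of its counts in Rn45s. Its Cnga2 per 1000 mature marker counts was 120.5, inside the range of the other libraries.

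In heterozygous libraries the lowest Cnga4 value per 1000 mature marker counts, 22.4 in replicate 3, was separated from the other 3 by 0.948 of the range, above the same critical value. Its Cnga4/Cnga2 ratio, 0.196, was also the lowest of the heterozygous libraries. Of 56 groups tested, chance alone picks out about 1 in 20.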

How the results depend on the processing

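Adjusted calls among the 10 genes stayed at 0 in every alternative. The whole table also had 0 in every edgeR fit except the block of 2 genotypes described below. This count therefore says little about the cascade genes themselves. With 3 or 4 libraries a genotype the intervals were wide, and small differences could have gone undetected. The median log2 fold change stayed negative in homozygous against wild type libraries in every alternative fitted over both library sets, between -0.38 (wild type replicate 3 left out) and -0.09 (wild type replicate 1 left out). With the replicate block it was -0.24 and 0 genes of the whole table passed. A block fitted to the 2 genotypes alone passed 39 of 16163 genes, none a cascade gene, with a median of -0.29. That fit and those with Xist were chosen after seeing the data. The cause of the sign changes below was not tested.

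With Xist as a covariate, estimates against wild type became positive for Ric8b (0.12) and Adcy3 (0.032) in homozygous and for Gnal (0.073), Ric8b (0.28), Adcy3 (0.077) and Ano2 (0.027) in heterozygous libraries. With library set and Xist together these were Ric8b (0.064), Adcy3 (0.0095) and Pde1c (0.086) in homozygous and Gnal (0.062), Ric8b (0.23) and Adcy3 (0.058) in heterozygous libraries. Ric8b in heterozygous libraries was 0.059 with the replicate block and 0.054 with library set as a covariate.

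With 1 library left out, the number of cascade genes at an unadjusted p under 0.05 against wild type ranged from 0 to 5 in homozygous and from 0 to 3 in heterozygous libraries, the highest without wild type replicate 3, where 4.25% and 3.66% of all genes were at that threshold (2.09% and 1.36% without wild type replicate 1). Homozygous against wild type estimates ranged from -0.30 to 0.023 (Gng13), -0.34 to 0.038 (Adcy3), -0.25 to 0.30 (Slc24a4) and -0.12 to 0.018 (Pde1c). Heterozygous against wild type ones ranged from -0.17 to 0.13 (Ric8b), -0.29 to 0.093 (Adcy3), -0.42 to 0.057 (Ano2), -0.38 to 0.17 (Slc24a4) and -0.020 to 0.14 (Pde1c). Homozygous against heterozygous ones ranged from -0.25 to 0.015 (Gnal), -0.11 to 0.21 (Gng13), -0.18 to 0.057 (Adcy3), -0.14 to 0.075 (Cnga4), -0.16 to 0.018 (Cngb1) and -0.025 to 0.29 (Slc24a4). For ratios in homozygous against wild type libraries the ranges were -0.033 to 0.37 (Gng13/Gnal), -0.21 to 0.028 (Cngb1/Cnga2), -0.10 to 0.083 (Ano2/Cnga2), -0.028 to 0.78 (Slc24a4/Ano2) and -0.11 to 0.30 (Pde1c/Adcy3).

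Within library sets the homozygous against wild type ratio differences changed sign in set 1 for Gng13/Gnal (-0.095) and Ano2/Cnga2 (0.015), and in set 2 for Ric8b/Gnal (-0.0099), Cnga4/Cnga2 (0.19), Cngb1/Cnga2 (0.19), Ano2/Cnga2 (0.056), Slc24a4/Ano2 (-0.38) and Pde1c/Adcy3 (-0.37). Over all genotype comparisons, leaving out 1 library changed the sign of 15 of 24 ratio differences and 20 of 30 differences per marker count, and taking Omp alone as the marker changed 0 of 30.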
